A study of Mus musculus with 8 samples.

Results

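The genes described are those of lactate metabolism and transport in mouse gastrocnemius, a calf muscle: the lactate dehydrogenases Ldha, Ldhb and Ldhd, the monocarboxylate transporters Slc16a1, Slc16a3 and Slc16a7, and Bsg. They were chosen by name for their function, and they are 7 of the 21207 gene symbols named in all 8 matrices of the series. Each was detected in every library. All values are UMIs, the tags that let a captured RNA molecule be counted once, or CPM, which scales the UMIs of a gene to a fixed total of UMIs in the same library or class of nuclei.

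Lactate dehydrogenase is a tetramer of subunits that interconverts pyruvate and lactate. The subunit coded by Ldha prevails in glycolytic tissue and is associated with lactate production, and the subunit coded by Ldhb prevails in oxidative tissue and is associated with lactate use. Ldhd codes for a mitochondrial enzyme that oxidises D-lactate. Slc16a1, Slc16a3 and Slc16a7 code for the transporters MCT1, MCT4 and MCT2. MCT4 is best known for lactate export from fast glycolytic fibres and MCT1 for exchange and uptake in oxidative fibres, and basigin, the product of Bsg, is the partner that carries both to the cell membrane.

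The study sequenced RNA of single nuclei from frozen muscle of C57BL/6 mice, all labelled wild type. It compared old with young muscle and, in middle-aged mice, muscle after running exercise with sedentary muscle. The ages were 3 months in Young and 20 months in Old, and the Running and Sedentary mice were 11 months old at the start of the training, which lasted 2 months. Each of the 4 groups had 2 libraries, replicate 1 made with 10x Genomics droplets and replicate 2 with another droplet system, called the second set. How many mice each library came from was not given in the sources used here, so all p-values measure the spread between these libraries, which may be technical.

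The promoters of Ldha, Ldhb, Slc16a1 and Slc16a3 are shown first, as a description. Their part in the differences between fibre types was not tested. The sequences are from RefSeq on GRCm38.p6, which held a start for 5 of the 7 genes, and each is the 250 bases before the start, read 5′ to 3′ on the strand of the gene and without bases of annotated exons. Capitals mark ACGTG or GCGTG on either strand, the core letters of the hypoxia response element, with overlapping matches in 1 run.

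Ldha, chr7:46845554-46845803, plus strand: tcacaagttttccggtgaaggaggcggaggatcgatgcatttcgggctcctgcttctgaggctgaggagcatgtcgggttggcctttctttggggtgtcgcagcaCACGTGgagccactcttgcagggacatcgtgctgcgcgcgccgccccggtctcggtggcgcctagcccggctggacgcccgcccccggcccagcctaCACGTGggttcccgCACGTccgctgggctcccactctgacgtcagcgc

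Ldhb, chr6:142507958-142508207, minus strand: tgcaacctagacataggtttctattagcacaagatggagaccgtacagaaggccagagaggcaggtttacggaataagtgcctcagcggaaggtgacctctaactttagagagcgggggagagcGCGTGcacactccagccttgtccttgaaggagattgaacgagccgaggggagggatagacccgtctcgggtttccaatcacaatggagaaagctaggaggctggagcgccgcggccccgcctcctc

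Slc16a1, chr3:104638414-104638663, plus strand: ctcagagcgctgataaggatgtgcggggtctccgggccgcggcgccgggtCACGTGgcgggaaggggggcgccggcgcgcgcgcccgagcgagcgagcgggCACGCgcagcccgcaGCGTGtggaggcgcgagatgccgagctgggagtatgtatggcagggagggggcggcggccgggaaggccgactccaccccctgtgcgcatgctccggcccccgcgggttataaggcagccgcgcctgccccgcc

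Slc16a3, chr11:120948817-120949052, plus strand, with 14 exon bases left out: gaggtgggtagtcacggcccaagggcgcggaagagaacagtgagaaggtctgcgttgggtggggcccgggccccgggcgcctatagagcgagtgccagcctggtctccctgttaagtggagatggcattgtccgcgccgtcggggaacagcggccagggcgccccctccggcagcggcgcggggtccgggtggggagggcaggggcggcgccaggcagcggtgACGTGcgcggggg

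The Ldha window held 5 matches in 3 runs, the Slc16a1 window 4 in 3 runs, and the Ldhb and Slc16a3 windows 1 each. CACGTG reads the same on both strands and was counted once on each. Another RefSeq start of Ldha had 1 match, and the Ldhd window, not printed, had 2 in 1 run. Of 32851 gene starts in the table, 38.6% had at least 1 such match in the same window, so a match alone sets no gene apart. AAGGTCA, the core of the estrogen-related receptor element, was searched on both strands and was in 4.08% of all windows and in none of these 4. A match is a description of letters and not of a bound site.

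In GENCODE vM21 on GRCm38, all 7 genes are protein coding. Ldha spans chr7:46841475-46855627 on the plus strand and Ldhb chr6:142490249-142507957 on the minus strand. Ldhd spans chr8:111623785-111630374 on the minus strand, Slc16a1 chr3:104638668-104658462 on the plus strand and Slc16a3 chr11:120948480-120960868 on the plus strand. Slc16a7 spans chr10:125219270-125389465 on the minus strand and Bsg chr10:79704491-79711969 on the plus strand. The Ldha and Slc16a3 windows lie inside the annotated span of their gene but outside its exons, and those of Ldhb and Slc16a1 lie just upstream of it. Slc16a7 was the longest at 170196 bases, against 6590 to 19795 bases for the other 6 genes. Ldhd overlaps Znrf1, and Slc16a7 overlaps Gm45604 and Gm47862, each on the opposite strand. Slc16a1 overlaps the predicted genes Gm43581 and Gm43585 on its own strand. Reads of Ldhd, Slc16a7 and Slc16a1 could thus be split between genes.

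Of 65280 deposited nuclei, 64803 were retained. The 10x libraries held between 23390969 and 44454427 UMIs and the second set between 4839878 and 9278034, so values of the second set rest on fewer molecules. Nuclei were clustered with the 7 genes left out and each cluster was named from marker genes, so that a name such as Type IIb stands for nuclei that resemble this type in its markers only. Type IIb nuclei, marked by Myh4, the myosin heavy chain of the fastest fibres, were between 20.1% and 69.7% of a library. Old replicate 2 stood apart: 68.2% of its nuclei could not be named, against 1.55% to 17.9% in the other libraries. In the second set no nuclei were named muscle stem cell, pericyte, endothelial or macrophage, so levels of these classes rest on the 10x set. Between 30 and 46 barcodes were shared by any pair of 10x libraries, at most 0.39% of the smaller library, and the barcodes of the second set are running numbers that cannot be compared.

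Ldha was the most abundant lactate dehydrogenase in every library. Over all nuclei of the 10x libraries it stood at 121 CPM in Old and 212 in Young, with 194 in Running and 83.5 in Sedentary. The second set had 283, 495, 679 and 415 CPM, in the same order. Ldhb was lower throughout, at 28.9, 5.55, 19.0 and 21.6 CPM in the 10x libraries and 54.5, 109, 39.7 and 44.0 CPM in the second set. The mean level over the 10x libraries was 152 CPM for Ldha, 94.2 for Bsg and 73.9 for Slc16a3. It was 18.8 for Ldhb, 18.2 for Slc16a1, 17.7 for Slc16a7 and 15.4 for Ldhd. Divided by the length of the gene span, it was 12.6 CPM per kb for Bsg, 10.8 for Ldha and 5.96 for Slc16a3. The other genes had 2.34 (Ldhd), 1.06 (Ldhb), 0.92 (Slc16a1) and 0.10 (Slc16a7). Per kb of exon, Bsg (52.0) and Ldha (46.1) were also highest, and Ldhd had 2.89. The order thus depended on the division, and whether UMIs rise with gene length was not tested.

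The 2 main dehydrogenase genes lay in different nuclei. In the 10x libraries Ldha averaged 212 ± 72.5 CPM (SD, n = 4) in Type IIb nuclei and 206 ± 76.2 in neuromuscular junction nuclei, followed by 143 ± 56.9 in myotendinous junction nuclei and 117 ± 53.2 in Type IIa/IIx nuclei. Ldhb lay mainly in other classes. It averaged 2.78 ± 1.83 CPM in Type IIb nuclei against 77.7 ± 34.0 in Type IIa/IIx nuclei, 55.9 ± 26.9 in pericytes and 23.7 ± 12.5 in muscle stem cells. Slow nuclei, marked by Myh7, reached at least 20 nuclei in only 2 of the 10x libraries, where Ldhb stood at 240 CPM in Old and 98.0 in Sedentary. In the Schwann cell nuclei of the same libraries Ldhb was at 124 and 117 CPM, on 14 and 5 UMIs.

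**Figure D1:**
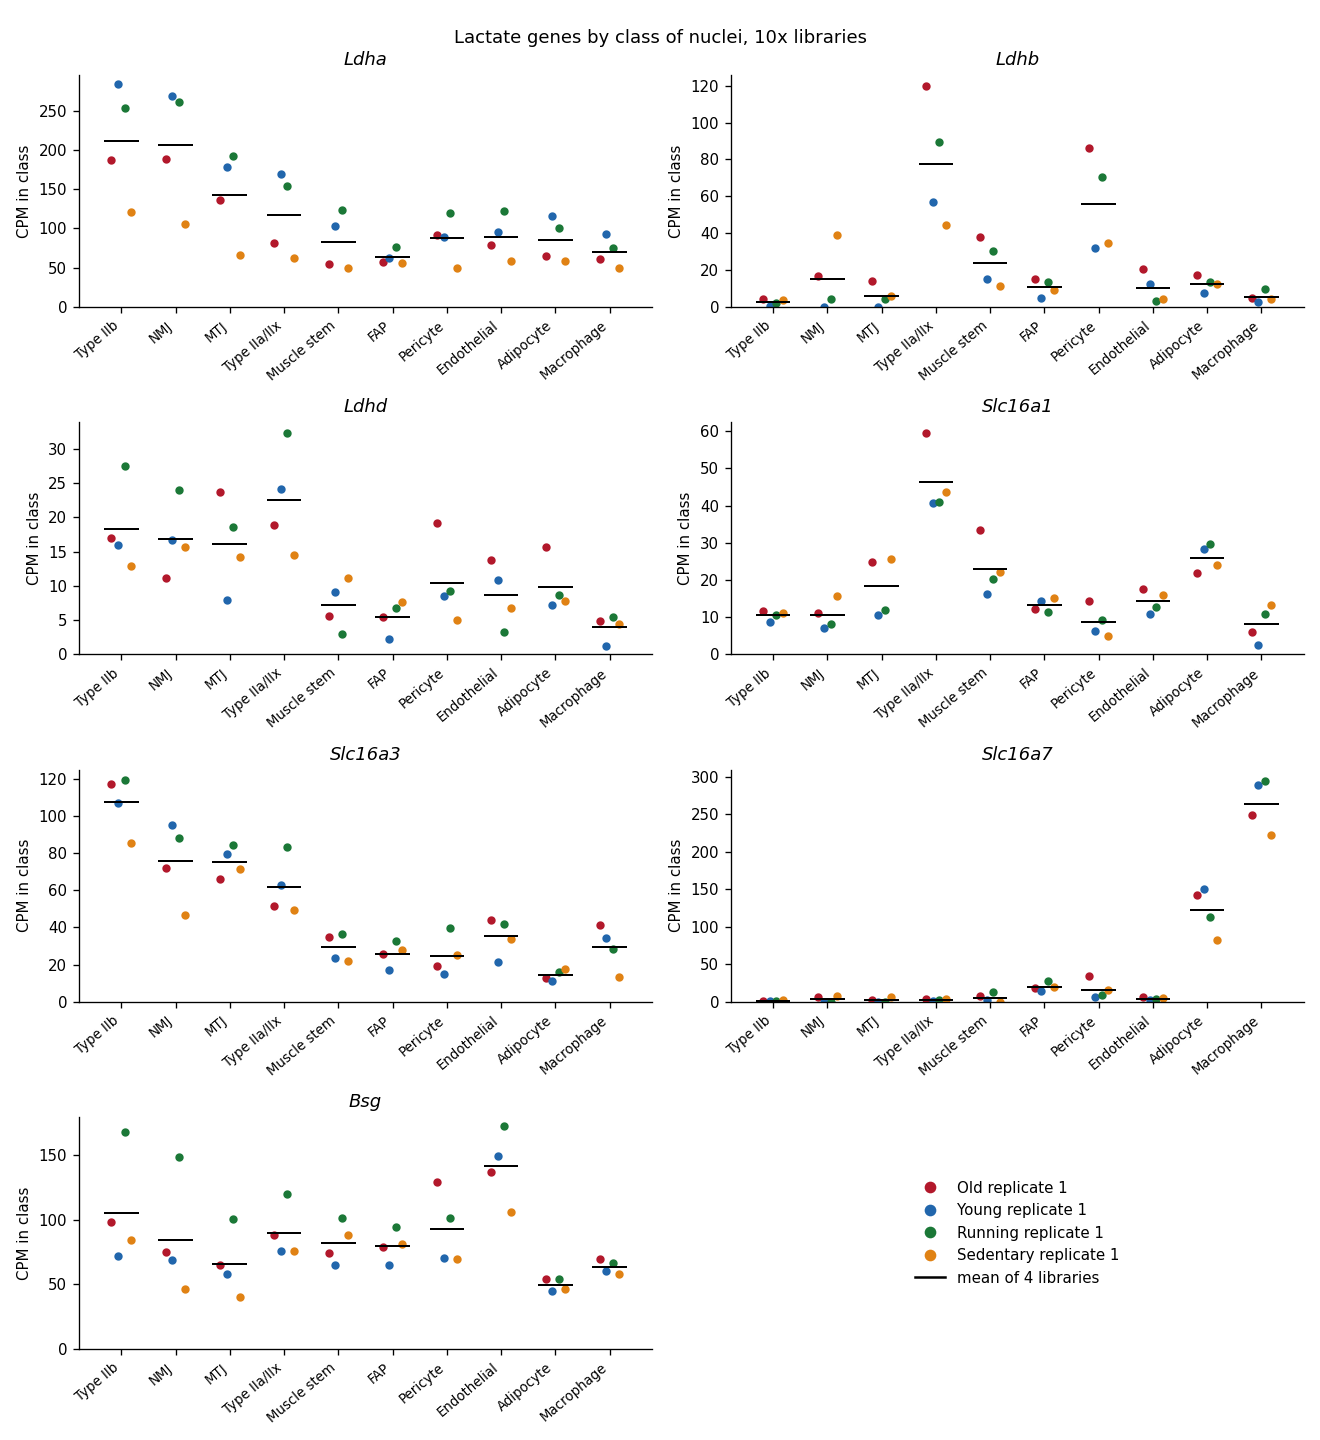
Level of each gene (CPM, vertical axis) in the 10 classes of nuclei found in every 10x library, with 1 point per library and a black line at the mean of 4 libraries. Ldha and Slc16a3 were highest in Type IIb nuclei, Ldhb and Slc16a1 in Type IIa/IIx nuclei, Slc16a7 in macrophages and Bsg in endothelial nuclei.

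In Type IIb nuclei the Ldha level was 188 CPM in Old and 284 in Young, with 253 in Running and 121 in Sedentary in the 10x libraries, and 364, 415, 689 and 441 CPM in the second set. In Type IIa/IIx nuclei it was 81.5, 170, 154 and 61.8 CPM in the 10x libraries and 228, 317, 569 and 320 in the second set. Every library was thus lower in Type IIa/IIx than in its own Type IIb nuclei, although the libraries of the 2 classes overlap when set side by side.

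Ldhb ran the other way in every library. In Type IIb nuclei it stood at 4.52, 0.455, 2.22 and 3.94 CPM in Old, Young, Running and Sedentary of the 10x libraries, and at 37.9, 37.8, 25.1 and 15.9 in the second set. In Type IIa/IIx nuclei it stood at 120, 56.8, 89.5 and 44.4 CPM in the 10x libraries and 85.4, 94.3, 84.8 and 125 in the second set. The 2 classes did not overlap, and the gap was wider in the 10x libraries, whose Type IIb nuclei had less Ldhb than those of the second set.

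Class differences were tested within libraries in 2 ways. An exact two-sided sign-flip permutation test used the log2 CPM difference of each library. With 8 libraries it cannot give a p-value below 0.0078, and adjusted for all genes by Benjamini-Hochberg it called none of 17097 genes (0% called) between Type IIa/IIx and Type IIb nuclei. An edgeR quasi-likelihood fit with the library as a block, chosen after these values had been seen, called 4130 of 16701 genes (24.7%) at an adjusted p below 0.05. The clusters were formed from other genes of the same nuclei, and this background includes the genes that defined them.

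Between Type IIa/IIx and Type IIb nuclei, 5 of the 7 genes passed in the edgeR fit. Ldha was lower, with a log2 fold change of -0.81 ± 0.11 (SE, adjusted p = 3.86e-06) and Ldhb higher by 3.30 ± 0.39 (adjusted p = 1.02e-06). Slc16a1 was higher by 1.68 ± 0.12 (adjusted p = 9.68e-10), and Slc16a3 was lower, at -0.82 ± 0.11 (adjusted p = 3.86e-06). In the exact test these 4 genes had a mean log2 CPM difference of -0.68 for Ldha, 3.36 for Ldhb, 1.69 for Slc16a1 and -0.62 for Slc16a3, each in the same direction in 8 of 8 libraries (permutation p = 0.0078, adjusted p = 0.062 over all genes). Ldha and the export transporter thus stood on one side and Ldhb and the uptake transporter on the other. For these 7 genes in 5 classes, 35 pairs of gene and class were tested, and edgeR called 22 of them, also 22 without Old replicate 2. The same fits called between 12% (neuromuscular junction nuclei) and 55.6% (fibro-adipogenic progenitors) of all genes tested. The 22 differences had the same sign in the unscaled CPM values.

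Bsg was lower in Type IIa/IIx nuclei, at -0.40 ± 0.08 in edgeR (adjusted p = 0.00099), a difference lost in the 10x libraries alone (-0.25, adjusted p = 0.071). Ldhd differed by 0.03 ± 0.11 (adjusted p = 0.89) and Slc16a7 by 0.26 ± 0.23 (adjusted p = 0.44), and neither passed.

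The share of Ldhb in the UMIs of Ldha and Ldhb together sums up this contrast and does not depend on the scaling. In Type IIb nuclei of the 10x libraries it was 2.35% (95% Wilson interval 1.88 to 2.94) in Old and 0.16% (0.09 to 0.29) in Young, with 0.87% (0.67 to 1.13) in Running and 3.15% (2.30 to 4.29) in Sedentary. In Type IIa/IIx nuclei it was 59.5% (56.5 to 62.5), 25.1% (21.3 to 29.3), 36.7% (34.4 to 39.1) and 41.8% (38.1 to 45.5) in the same order. In slow nuclei it was 84.1% in Old and 81.2% in Sedentary. These intervals cover counting error only.

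The second set showed the same order with a smaller gap. The Ldhb share was 9.42%, 8.34%, 3.51% and 3.49% in Type IIb nuclei of Old, Young, Running and Sedentary, 27.3%, 22.9%, 13% and 28.0% in Type IIa/IIx nuclei, and 35.7%, 33.1%, 23.1% and 40.5% in slow nuclei. Over all libraries the share was higher in Type IIa/IIx than in Type IIb nuclei by 27.9 ± 15.5 percentage points (SD, n = 8, 8 of 8 libraries, exact sign-flip p = 0.0078, adjusted p = 0.031 over the 4 classes tested). The differences of myotendinous junction nuclei (3.63 points, adjusted exact p = 0.062), neuromuscular junction nuclei (5.65 points, adjusted exact p = 0.094) and fibro-adipogenic progenitors (7.52 points, adjusted exact p = 0.083) did not pass.

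Since class names rest on clusters, myonuclei were also grouped directly by the gene that gave the majority of their Myh1, Myh2, Myh4 and Myh7 UMIs, where at least 3 such UMIs were found. These genes code for the myosin heavy chains of fibre types IIx, IIa, IIb and slow. The Ldhb share climbed from Myh4-dominant to Myh1-dominant to Myh2-dominant nuclei in all 8 libraries, though in most of the second set on few Ldhb UMIs. In the 10x set it was 3.22%, 0.40%, 1.18% and 2.97% in Myh4-dominant nuclei of Old, Young, Running and Sedentary, 38.4%, 22.7%, 31.8% and 19.6% in Myh1-dominant nuclei, and 76.3%, 68.9%, 71.7% and 68.6% in Myh2-dominant nuclei. Myh7-dominant nuclei had 88.3% in Old and 82.5% in Sedentary. These 3 types did not overlap in the 10x libraries, where the lowest Myh2-dominant value lay far above the highest Myh1-dominant one.

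For the second set the share was 8.96%, 10.9%, 4.78% and 6.34% in Myh4-dominant nuclei, 15.4%, 21.5%, 8.0% and 11.4% in Myh1-dominant nuclei and 33.3%, 42.9%, 29.3% and 54.4% in Myh2-dominant nuclei. Over all libraries the share was higher than in Myh4-dominant nuclei by 16.2 ± 12.1 points in Myh1-dominant and by 50.8 ± 21.3 points in Myh2-dominant nuclei (SD, n = 8, each in 8 of 8 libraries, exact sign-flip p = 0.0078, which is also the value adjusted over both). Myh2-dominant nuclei were above Myh1-dominant nuclei by 34.6 ± 12.4 points (8 of 8 libraries, exact p = 0.0078).

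**Figure D2:**
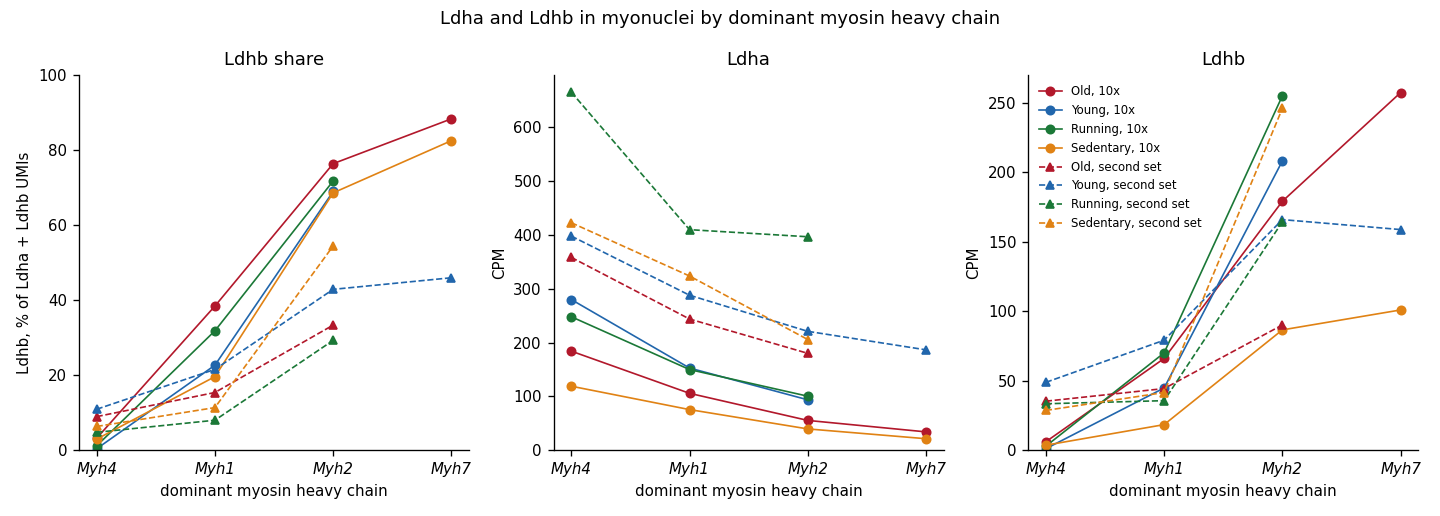
Ldhb share of Ldha and Ldhb UMIs (%, left), Ldha level (CPM, middle) and Ldhb level (CPM, right) by dominant myosin heavy chain, 1 line per library, solid for 10x and dashed for the second set. In every library the Ldhb share was higher in Myh2-dominant than in Myh4-dominant nuclei, by 50.8 points on average, while the Ldha level was lower.

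Both parts of the ratio moved. Relative to Myh4-dominant nuclei, Ldha was lower, at -0.91 ± 0.12 on the log2 scale in Myh1-dominant and at -1.44 ± 0.14 in Myh2-dominant nuclei (SE, edgeR with the library as a block, adjusted p = 9.81e-09 and 3.01e-10). Ldhb was higher by 2.52 ± 0.29 and 4.01 ± 0.40 (adjusted p = 5.35e-10 and 6.21e-10). The fit called 19.2% of 15810 genes in the first comparison and 22.3% of 15054 in the second, and 5 of the 7 genes in each. In the second set alone the Ldhb difference of Myh1-dominant nuclei was 0.47 and did not pass (adjusted p = 0.74), whereas that of Myh2-dominant nuclei, 2.07, did.

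The export transporter Slc16a3 followed Ldha, with a larger difference in Myh2-dominant than in Myh1-dominant nuclei. It was lower than in Myh4-dominant nuclei, at -0.77 ± 0.13 in Myh1-dominant and at -2.02 ± 0.17 in Myh2-dominant nuclei (SE, adjusted p = 5.44e-06 and 1.04e-11 in edgeR). Directly compared, Myh2-dominant nuclei were below Myh1-dominant nuclei, at -1.44 ± 0.17 for Slc16a3 (adjusted p = 2.62e-13) and at -0.66 ± 0.11 for Ldha (adjusted p = 1.04e-06), in a fit that called 11.6% of 9260 genes and 3 of the 6 lactate genes that passed its filter, the other being Ldhb.

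The uptake transporter Slc16a1 did not climb in the same way as Ldhb. It was higher than in Myh4-dominant nuclei by 1.59 ± 0.17 in Myh1-dominant and by 1.71 ± 0.20 in Myh2-dominant nuclei (SE, adjusted p = 3.40e-11 and 2.31e-08 in edgeR). In the second set alone the Myh1 difference fell short for Slc16a1 (0.78) and for Slc16a3 (-0.63). The difference between Myh2-dominant and Myh1-dominant nuclei was 0.03 ± 0.16 (adjusted p = 0.97), a value that does not show the 2 levels to be equal, where Ldhb differed by 1.80 ± 0.13 (adjusted p = 8.12e-28). Bsg was lower, at -0.48 ± 0.13 and -0.44 ± 0.14 (adjusted p = 0.0039 and 0.015), calls that did not hold in the second set alone or, for Myh1-dominant nuclei, in the 10x libraries alone. Ldhd did not pass in any of these comparisons (adjusted p from 0.51 to 0.77).

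Slow nuclei repeated this pattern in the 6 libraries with at least 20 of them. Against Type IIb nuclei, edgeR gave log2 fold changes of -1.25 ± 0.23 for Ldha, 3.38 ± 0.35 for Ldhb, 1.81 ± 0.28 for Slc16a1 and -1.71 ± 0.24 for Slc16a3 (SE, adjusted p from 1.75e-08 to 0.00012). These 4 of 7 genes passed against 19.9% of 11583 genes. The exact test cannot go below 0.031 with 6 libraries, and it reached that value for Ldha, Ldhb and Slc16a3.

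Nuclei under the neuromuscular junction stood near Type IIb nuclei in Ldha. In the 10x set it was 188 CPM in Old and 269 in Young, with 261 in Running and 105 in Sedentary, against 188, 284, 253 and 121 in Type IIb nuclei of the same libraries. The mean log2 CPM difference was -0.01 ± 0.11 (SD, n = 7, from -0.20 to 0.15, higher in 4 of 7 libraries, exact p = 0.80), and the edgeR difference was -0.22 ± 0.12 (SE, adjusted p = 0.30). Slc16a3, by contrast, was lower, at -0.76 ± 0.16 (adjusted p = 0.00013) and Bsg at -0.63 ± 0.15 (adjusted p = 0.00091), each in 7 of 7 libraries. Ldhb was higher by 1.13 ± 0.39 (adjusted p = 0.034), on at most 10 UMIs in any library, and this call was lost without Old replicate 1 (0.998), without Sedentary replicate 1 (0.59) and without Sedentary replicate 2 (1.08). The fit called 12% of 12853 genes and 3 of the 7 lactate genes.

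Myotendinous junction nuclei lie at the ends of the fibres. Ldha was lower there than in Type IIb nuclei, at -0.50 ± 0.11 (adjusted p = 0.0011) and Bsg at -0.54 ± 0.12 (adjusted p = 0.0010), each in 8 of 8 libraries. Slc16a1 was higher by 0.92 ± 0.23 (adjusted p = 0.0031, 8 of 8 libraries). Slc16a3 was lower, at -0.41 ± 0.13 (adjusted p = 0.028), a call lost in 4 of the 8 fits that left out 1 library, with values of -0.41 to -0.35 in these. In all, 4 of 7 genes passed against 13.5% of 11761 genes. In the 10x libraries alone Slc16a1 did not pass, and in the second set alone Ldha and Bsg did not.

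Outside the fibres, Slc16a7 had the clearest place. In macrophages of the 10x libraries it stood at 248.8 CPM in Old and 289 in Young, with 295 in Running and 223 in Sedentary, and in adipocytes at 142, 150, 113 and 81.8. Fibro-adipogenic progenitors had 17.7, 14.4, 28.2 and 20.2 CPM and Type IIb nuclei 1.51, 0.70, 1.44 and 2.38. Macrophages were above adipocytes, and adipocytes above every other of the 10 classes, in 4 of 4 libraries. With 4 libraries the exact test cannot reach the threshold, so no p-value is given.

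Slc16a7 UMIs were found in 38.3%, 39.0%, 34.9% and 25.2% of macrophage nuclei in Old, Young, Running and Sedentary, with a median of 2320, 2179, 1908 and 1110 UMIs a nucleus. In Type IIb nuclei, which were deeper in each library, the share was between 0.25% and 0.59%. After thinning each nucleus to 500 UMIs the shares were between 10.6% and 12.8% in macrophages and between 0.06% and 0.19% in Type IIb nuclei, so the lower raw share in Sedentary went with its depth. Macrophages held 43.2%, 40.2%, 32.2% and 13.3% of all Slc16a7 UMIs of the 10x libraries, and adipocytes between 26.7% and 31.8%. Between fibro-adipogenic progenitors and Type IIb nuclei Slc16a7 differed by 2.81 ± 0.41 in edgeR (adjusted p = 0.00012, 7 libraries), but by 0.90 in the second set alone (adjusted p = 0.67), where progenitors held at most 5 UMIs.

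Bsg was spread over all classes, and its highest 10x level was in endothelial nuclei, with 137 CPM in Old and 149 in Young, with 173 in Running and 106 in Sedentary. Type IIb nuclei had 98.3, 71.7, 168 and 84.1 CPM, below the endothelial value in 4 of 4 libraries, by little in Running. Among the 10 named classes found in every 10x library, Slc16a1 was highest in Type IIa/IIx nuclei, at 46.2 ± 9.01 CPM (SD, n = 4), and next in adipocytes, at 25.9 ± 3.68. Pericytes had Ldhb shares in the range of Type IIa/IIx nuclei: 48.6% in Old and 26.3% in Young, with 37.1% in Running and 41.2% in Sedentary, on 17 to 62 Ldha and Ldhb UMIs.

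In most classes outside the fibres Ldha was near the relative level of transcripts that those cells should lack. The summed level of 6 myofibre transcripts (Ckm, Acta1, Tnnt3, Tnni2, Mylpf and Myl1) in 10x fibro-adipogenic progenitors was, as a median over libraries, 30.9% of that in Type IIb nuclei, and Ldha stood at 30.4%. These values were 89.7% and 92.9% in the second set. Ldha stood at 32.5% in macrophages against 30.6% for the myofibre transcripts, and Slc16a3 at 24.4% in the 10x progenitors. Adipocytes differed, with Ldha at 40.2% against 22.4% for the myofibre transcripts, and so did endothelial Bsg, at 133% against 44.9%. Ldha lay below the myofibre transcripts in 10x lymphatic endothelial (13.8% against 27.9%), Schwann cell (23.8% against 33.8%) and tenocyte nuclei (29.2% against 38.5%). Slc16a3 lay below them in 10x pericytes (22.7% against 44.0%) and adipocytes (12.2% against 22.4%), but not in Schwann cell nuclei (35.0% against 33.8%). The part of fibre RNA in the Ldha and Slc16a3 levels of these classes was not tested. The edgeR differences of progenitors from Type IIb nuclei were -1.59 ± 0.29 for Ldha, -2.28 ± 0.26 for Slc16a3, -2.34 ± 0.29 for Ldhd and -0.82 ± 0.16 for Bsg (SE, adjusted p from 2.69e-05 to 0.0011). Ldhb was higher by 1.09 ± 0.39 (adjusted p = 0.030), and stood at -0.35 in the second set alone. This fit called 55.6% of 16773 genes and 6 of the 7.

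**Figure D3:**
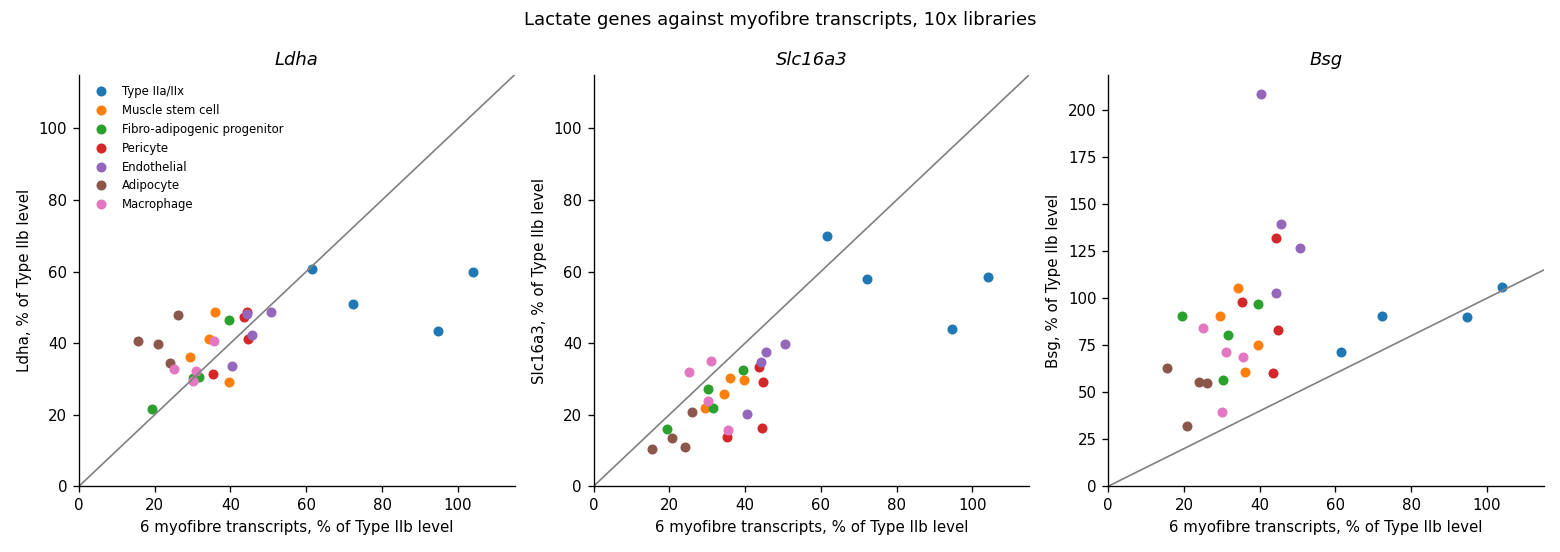
Level of Ldha, Slc16a3 and Bsg (vertical axis) against the summed level of 6 myofibre transcripts (horizontal axis), both as % of the Type IIb level of the same library, 1 point per class and 10x library, with a line of equality. For fibro-adipogenic progenitors the medians are 30.4% for Ldha and 30.9% for the myofibre transcripts, while endothelial Bsg lies far above the line with a median of 133%.

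The classes held unequal parts of the Ldha and Ldhb UMIs. Type IIa/IIx and slow nuclei together held 67.3% of Ldhb UMIs in Old and 52.1% in Young, with 71.1% in Running and 76.0% in Sedentary, of the 10x libraries, although they held 14.5%, 5.07%, 15.1% and 31.9% of all UMIs. Of the Ldha UMIs they held 9.30%, 4.06%, 11.96% and 21.7%, less than their share of all UMIs in each library. In the second set they held 8.52%, 39.5%, 45.6% and 61.5% of Ldhb UMIs and 5.23%, 39.8%, 19.4% and 20.6% of all UMIs, so that in Young replicate 2 they held no more of Ldhb than of all UMIs. In Old replicate 2 the unnamed nuclei held 75.2% of Ldhb UMIs. In Young replicate 2 the unnamed nuclei, 17.9% of its nuclei, stood at 271 CPM of Ldhb. Their summed level of the 6 myofibre transcripts was 273% of that in Type IIb nuclei of this library. An unnamed cluster of the second set, with 1173 nuclei, had Myl3, Tnnc1 and Tnnt1 of the slow marker list among its leading genes. Rgs5, a pericyte marker, was also among them. The part of slow fibre nuclei in the unnamed Ldhb UMIs was not tested.

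**Figure D4:**
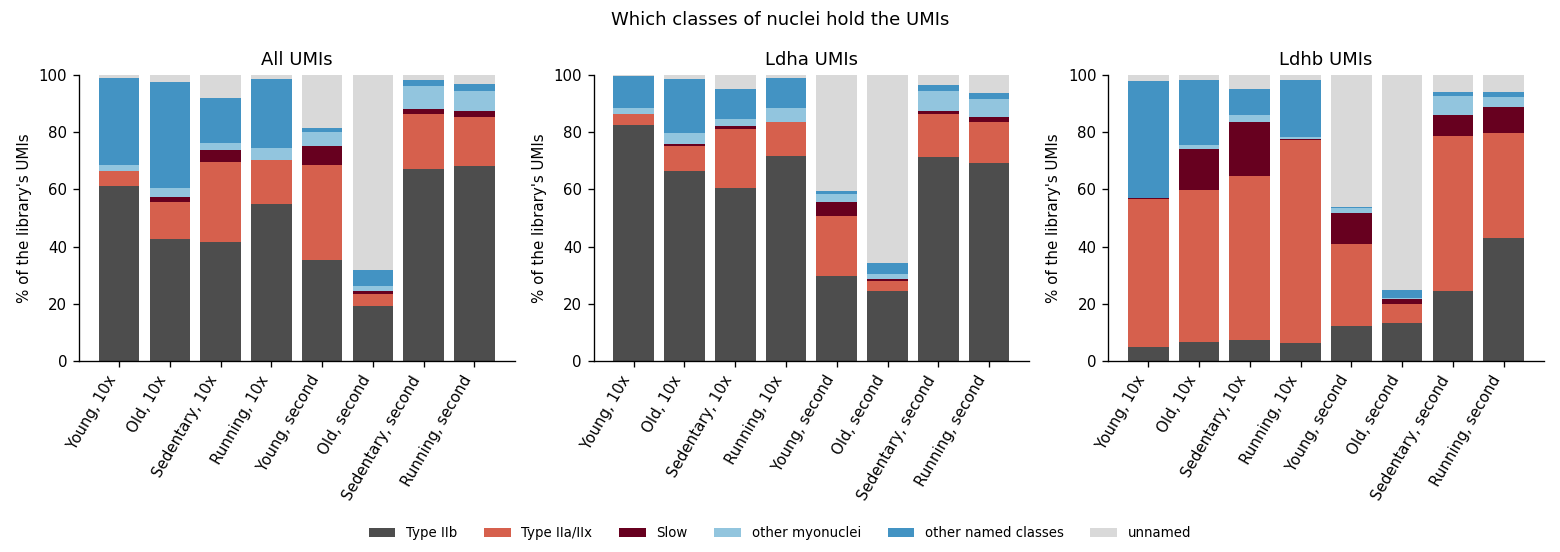
Share of UMIs (%, vertical axis) held by each class of nuclei in the 8 libraries, for all UMIs (left), Ldha UMIs (middle) and Ldhb UMIs (right). Type IIb nuclei hold most Ldha UMIs in the 10x libraries, Type IIa/IIx and slow nuclei hold most Ldhb UMIs there, and unnamed nuclei hold most of both in Old replicate 2.

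The first group comparison asked whether the genes differ with age. In whole-library sums edgeR called 0 of 20323 genes between Old and Young (0%) at an adjusted p below 0.05, with 557 at an unadjusted p below 0.05, and DESeq2 also called 0. None of the 7 genes passed. Their median log2 fold change was -0.48, against 0.19 for all genes tested. It was 0.01 without Old replicate 2 (-0.07 for all genes) and -1.10 without Old replicate 1, and -0.14 in named nuclei only.

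Ldha was lower in Old than in Young in both sets, at 121 against 212 CPM in the 10x libraries and 283 against 495 in the second set. The fitted log2 fold change was -1.18 ± 0.47 (SE, unadjusted p = 0.037, adjusted p = 0.69, edgeR), and it was -0.60 ± 0.35 within Type IIb nuclei (adjusted p = 0.99) and -0.88 ± 0.32 within Type IIa/IIx nuclei (unadjusted p = 0.020, adjusted p = 0.98). Ldha did not pass in any of these fits, and without Old replicate 2 the whole-library value was -0.75 ± 0.42 (adjusted p = 1.0). In these fits 1 of 13217 genes was called in Type IIa/IIx nuclei (0.00757%) and 0 of 16970 in Type IIb nuclei (0%).

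Ldhb gave opposite differences in the 2 sets. It was higher in Old in the 10x libraries (28.9 against 5.55 CPM, a log2 difference of 2.16 after TMM scaling) and lower in Old in the second set (54.5 against 109 CPM, -1.66), and the fitted value was -0.11 ± 0.85. In the 10x set the makeup moved with it, and its part was not tested: Type IIa/IIx and slow nuclei held 14.5% of UMIs in Old and 5.07% in Young. With the myosin type fixed, the log2 CPM difference between Old and Young in the 10x libraries was -0.21 in Myh2-dominant nuclei (458 and 51 UMIs), 0.55 in Myh1-dominant nuclei (96 and 41 UMIs) and 2.41 in Myh4-dominant nuclei (112 and 29 UMIs). In the second set it was -0.81 (4 and 108 UMIs), -0.76 (4 and 28 UMIs) and -0.46 (31 and 255 UMIs). The 2 sets thus differed in sign for Ldhb also within Myh1-dominant and Myh4-dominant nuclei. In Myh1-dominant nuclei the second-set sign rests on 4 UMIs of Old replicate 2.

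Slc16a1 and Bsg also had opposite signs in the 2 sets. Slc16a1 was higher in Old in the 10x libraries (20.3 against 12.6 CPM) and lower in the second set (22.2 against 38.0). Bsg was also higher in one set (89.3 against 70.3 CPM) and lower in the other (135 against 187). Ldhd stood at 13.7 against 12.6 and 7.06 against 16.3 CPM, with log2 differences of -0.09 and -1.86 after TMM scaling, so that its sign in the 10x libraries depended on the scaling. Slc16a3 was lower in both, at 70.2 against 76.8 and 62.8 against 85.7 CPM, with a fitted log2 fold change of -0.63 ± 0.45 (adjusted p = 0.69), or -0.15 without Old replicate 2.

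Slc16a7 was higher in Old in both sets, at 24.6 against 14.8 CPM in the 10x libraries and 63.0 against 10.2 in the second set, with a fitted value of 1.53 ± 0.76 (unadjusted p = 0.079, adjusted p = 0.69). Without Old replicate 2 it was -0.05. In that library the unnamed nuclei held 78.5% of the gene's UMIs, and genes with a span over 100 kb, to which Slc16a7 belongs, had a median Old against Young difference of 1.72 on the log2 scale in the second set, against 0.11 for genes under 20 kb. In the 10x set these medians were 0.20 and 0.29. In Old of the 10x libraries macrophages held 4.27% of all UMIs, against 2.06% in Young. The part of either in the Slc16a7 difference was not tested.

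**Figure D5:**
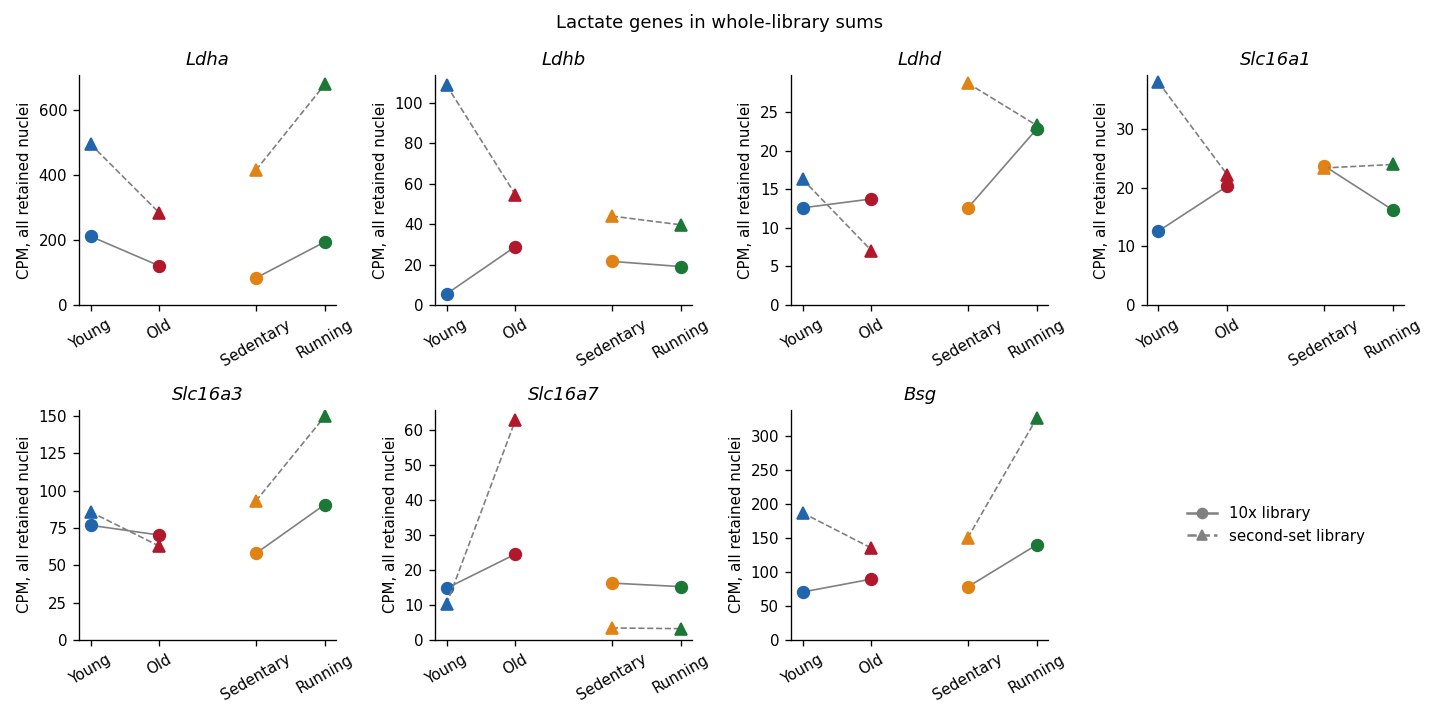
Level of each gene over all retained nuclei (CPM, vertical axis) in the 4 groups, with circles and solid lines for the 10x libraries and triangles and dashed lines for the second set. Ldha is lower in Old than in Young and higher in Running than in Sedentary in both sets, whereas the lines of Ldhb, Slc16a1, Bsg and, in these unscaled values, Ldhd slope in opposite directions between Young and Old.

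The second comparison asked whether the genes differ after running exercise. EdgeR called 0 of 20323 genes for running (0%), 98 had an unadjusted p below 0.05, and DESeq2 called 0. None of the 7 genes passed, and their median log2 fold change was 0.18, against -0.04 for all genes. It was 1.13 without Sedentary replicate 2 and 0.40 in a fit of the 4 libraries compared.

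Bsg had the smallest p-value of the 7, and the Running libraries had 140 (10x) and 325 CPM (second set) where the Sedentary ones had 77.8 and 150. The log2 fold change was 1.01 ± 0.41 (SE, unadjusted p = 0.039, adjusted p = 1.0, edgeR). It was also above 0 within Type IIb nuclei (0.98 ± 0.23, unadjusted p = 0.0027), Type IIa/IIx nuclei (0.98 ± 0.31, unadjusted p = 0.0083), myotendinous junction nuclei (1.22 ± 0.42, unadjusted p = 0.0083) and neuromuscular junction nuclei (1.49 ± 0.52, unadjusted p = 0.0073), and no adjusted p was below 0.59. The Running library was the higher in both sets, and within Type IIb nuclei the values were 168 against 84.1 and 321 against 157 CPM.

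Ldha was higher in Running too, at 194 against 83.5 CPM in the 10x libraries and 679 against 415 in the second set, a log2 fold change of 0.92 ± 0.47 (unadjusted p = 0.087, adjusted p = 1.0). Within Type IIb nuclei it was 0.79 ± 0.35, within Type IIa/IIx nuclei 1.02 ± 0.31 (unadjusted p = 0.0080) and within neuromuscular junction nuclei 1.06 ± 0.37 (unadjusted p = 0.0082), and none passed over all genes. Slc16a3 stood at 90.7 against 57.9 and 150 against 93.1 CPM, a log2 fold change of 0.68 ± 0.44 (adjusted p = 1.0). Ldha, Slc16a3 and Bsg were thus higher in Running in both sets, over all nuclei and in Type IIb and Type IIa/IIx nuclei. Each of these genes has a span under 20 kb. In the 10x libraries, genes under 20 kb had a median Running against Sedentary log2 difference of 0.35, and genes over 100 kb of -0.33. In the second set these medians were 0.12 and 0.04. The part of gene length in the Ldha, Slc16a3 and Bsg differences was not tested.

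Myofibre transcripts leaned the same way. All 8 genes of a list of abundant fibre transcripts were higher in Running in each set, with a median log2 CPM difference of 1.15 in the 10x libraries and 0.55 in the second set, and of 1.07 and 0.58 within Type IIb nuclei. Between Old and Young their medians were -0.62 and -0.90. The Ldha differences in the same unit were 1.22 and 0.71 for Running against Sedentary and -0.81 and -0.81 for Old against Young. Within Type IIb nuclei the Ldha differences were 1.06 and 0.64 after running, and -0.60 and -0.19 for Old against Young. The myofibre medians of Old against Young within Type IIb nuclei were -0.63 and -0.52. The part of the fibre transcripts in the Ldha, Slc16a3 and Bsg differences was not tested.

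Ldhb, Ldhd, Slc16a1 and Slc16a7 did not pass after running. Ldhb was a little lower in Running in both sets and stood at 19.0 against 21.6 and 39.7 against 44.0 CPM, with a fitted log2 fold change of -0.14 ± 0.78. Within the 10x libraries Ldhb was higher in Running in Myh1-dominant nuclei (70.01 against 18.4 CPM) and in Myh2-dominant nuclei (255 against 86.5 CPM), while in the second set it was 35.7 against 41.5 and 164 against 246 CPM, on 2 against 5 and 12 against 37 UMIs. Slc16a1 stood at 16.2 against 23.8 and 24.0 against 23.4 CPM, Slc16a7 at 15.3 against 16.3 and 3.22 against 3.43, and Ldhd at 22.8 against 12.6 and 23.3 against 28.7.

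The Ldhb share of all nuclei was 19.4% in Old and 2.56% in Young, with 8.93% in Running and 20.6% in Sedentary in the 10x libraries, and 16.1%, 18.0%, 5.52% and 9.57% in the second set. It was lower in Running than in Sedentary in both sets and had no common direction between Old and Young. In the 10x set the share of UMIs in Type IIa/IIx and slow nuclei was 15.1% in Running and 31.9% in Sedentary.

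Over all classes that could be fitted, 50 tests of the 7 genes were made, of which 0 passed and 10 had an unadjusted p below 0.05, with a smallest adjusted p of 0.59. Among all genes of the same edgeR fits, between 0.996% and 4.92% had an unadjusted p below 0.05. The tests share libraries and are not independent. The genes called were 10 of 13294 in fibro-adipogenic progenitors (0.0752%) and 5 of 6410 in neuromuscular junction nuclei (0.078%) between Running and Sedentary, and 0% in Type IIb, Type IIa/IIx and myotendinous junction nuclei. Of the 31 tests between Running and Sedentary, 21 gave a higher value in Running. Of the 19 between Old and Young, 8 gave a lower value in Old. The median log2 fold change of all genes in these class fits was between -0.034 and 0.053 for running and between -0.096 and 0.091 for age.

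Other genes of the pathway were read from gene lists in the same whole-library fits, and none passed. Of 7 genes of lower glycolysis, the steps that supply pyruvate, 7 were higher in Running, with a median log2 fold change of 0.65, led by Pgam2 (phosphoglycerate mutase of muscle, 1.39) and Gapdh (1.24). In Old, 0 of 7 were higher than in Young, with a median of -1.26, led by Eno1 (-1.38) and Gapdh (-1.37). Of 15 genes of pyruvate entry into mitochondria, the pyruvate carriers and the pyruvate dehydrogenase complex with its kinases and phosphatases, 14 were lower in Old (median -0.67) and 1 higher, the kinase gene Pdk3 (1.27), with the phosphatase gene Pdp1 the lowest (-1.02). In the 10x libraries alone, 7 of the 15 were higher in Old after TMM scaling, and more of them in unscaled CPM. Between Running and Sedentary, 7 were higher and 8 lower (median -0.02), from Pdk3 (-0.74) to Pdk4 (0.82), both kinases of the complex. Of 7 regulators, among them the hypoxia factor Hif1a (-0.66) and the coactivator Ppargc1b (-0.98), 7 were lower in Old (median -0.60) and 6 were lower in Running (median -0.13). The part of the fibre transcripts in these values was not tested.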

How the data were processed

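Single nuclei of mouse gastrocnemius were profiled in 8 libraries, 2 per group. The matrices deposited by the authors, 1 per library, hold unnormalized UMI counts. The submitters' processing notes name Cell Ranger 6.1.2 on mm10 and Seurat 4.1.1, and the second set was made on a DNBelab system and counted with PISA. Whether intronic reads were counted is not given in the sources used here.

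A nucleus was retained if it had 200 to 6000 genes and a mitochondrial share below 6%. The 12 mitochondrial genes and 84 genes of ribosomal proteins did not enter any sum. Each set was clustered on its own by the Leiden method (leidenalg 0.10.2 in scanpy 1.11.5, resolution 1.0) on 30 principal components of 2000 variable genes with 20 neighbours, without the 7 lactate genes. Clusters were named from 18 marker lists, by limits set after the clusters had been seen. Doublets stayed in: Scrublet marked 2.56% to 4.72% of nuclei in 3 libraries and 0 in the other 5, where it had not worked, so an alternative left out the 6% with the highest scores.

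Counts were summed per library and class. Groups were compared in R 4.3.3 by the quasi-likelihood test of edgeR 4.0.16 (TMM scaling, filterByExpr, group and library set as terms, all 8 libraries, Benjamini-Hochberg adjustment over all genes tested, threshold 0.05), and DESeq2 1.42.0 was an alternative. Classes needed 20 nuclei in a library. Class differences were tested within libraries by an exact two-sided sign-flip permutation test, over genes with at least 50 UMIs and with 0.5 UMI added on the log2 scale, and by edgeR with the library as a block, which was added after the data had been seen. The edgeR steps were tested on simulated data. Intervals are 95% Wilson intervals. Coordinates are from GENCODE vM21 on GRCm38.

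The genes, lists and tests were chosen with earlier results of these data known. All 7 genes are named. Of other lists, counts are given with the 2 genes of the largest change where none passed.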

Additional observations from a re-analysis of the deposited data

How the results depend on the processing

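Under the alternatives run, none of the 7 genes passed in a comparison of groups. Over 19 settings the Ldha log2 fold change of all nuclei was between -1.85 and -0.75 for Old against Young and between 0.40 and 1.65 for Running against Sedentary. A fit of only the 4 libraries compared called 4 genes for age and 81 for running, where the fit of 8 libraries called 0. Leaving out 1 library gave 0 to 8 and 0 to 419 genes, with 8 without Sedentary replicate 1, 4 without Sedentary replicate 2 and, for running, 419 without Sedentary replicate 2. The labels give no replicate numbers, and the library set, which the groups share, was the block of each fit. Without this term 0 genes were called in both comparisons, with 118 and 12 at an unadjusted p below 0.05 by edgeR. The values below changed sign, and the cause was not tested.

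For Old against Young over all nuclei, Ldhb was 0.32 in the fit of 4 libraries and also 0.32 in named nuclei only. With 1 library left out the range was -1.37 to 1.93 for Ldhb, -2.01 to 0.014 for Ldhd, -1.14 to 0.24 for Slc16a1, -0.053 to 2.39 for Slc16a7 and -1.08 to 0.057 for Bsg, with the lower end of Slc16a7 and the upper ends of Ldhd and Bsg reached without Old replicate 2. In Type IIb nuclei it was -0.39 to 0.25 for Bsg, -0.27 to 3.12 for Ldhb, -2.36 to 0.087 for Ldhd, -0.18 to 0.20 for Slc16a1, -0.79 to 0.13 for Slc16a3 and -0.47 to 2.53 for Slc16a7. At a clustering resolution of 0.5, Slc16a1 there was -0.27.

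For Running against Sedentary over all nuclei, the range with 1 library left out was -0.57 to 0.20 for Ldhb, -0.54 to 1.17 for Ldhd and -1.13 to 0.92 for Slc16a7. Slc16a7 was 0.022 with RLE scaling, 0.035 in DESeq2, 0.032 in the fit of 4 libraries, 0.12 in named nuclei only and 0.035 after thinning to equal UMIs. In Type IIb nuclei the range was -1.08 to 0.90 for Ldhb, -0.60 to 1.33 for Ldhd, -0.060 to 0.20 for Slc16a1 and -2.19 to 0.86 for Slc16a7, and Ldhb was 0.048 at resolution 0.5. In Type IIa/IIx nuclei Slc16a1 was 8.12e-05 without doublets.

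Between classes, the Ldhb share difference of Type IIa/IIx nuclei was 23.7 to 30.5 points with 1 library left out and 39.1 points in the 10x libraries alone, where 7 or 4 libraries cannot pass after adjustment over 4 classes. That of Myh2-dominant nuclei was 69.4 points in the 10x libraries alone, with the same limit. EdgeR with the library as a block called 22 of the 35 pairs of gene and class where the exact test called 0, and 19 to 22 with 1 library left out. Its main fits called 12% to 55.6% of all genes. Bsg in slow nuclei was 0.35 at resolution 2.0. Ldha in neuromuscular junction nuclei was -0.037 to 0.021 with 1 library left out and 0.017 without doublets. Ldhb in fibro-adipogenic progenitors was -0.35 in the second set alone and did not pass without Old replicate 1 (0.999), Young replicate 1 (0.86) or Running replicate 1 (0.82).

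Of the values that answer a comparison, 64 kept their direction and side of the threshold, 10 lost it and 6 moved. Of the values for single genes, 1170 kept their direction and their side of the threshold, 33 lost it, 2 gained it, 30 moved and 47 changed sign. The second set held few UMIs of Ldhd and Slc16a7, down to 16 in a library, so a modest difference in these genes was not detectable there.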

Other observations

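The level of each gene over 10 classes of nuclei in the 10x libraries was set beside that of all genes whose log2 CPM averaged at least 4, as a description with no test, since the classes share libraries. The genes most like Ldha were Mospd1 (Pearson r = 0.96), Gpd2, the mitochondrial glycerol-3-phosphate dehydrogenase (0.96), and Cpeb4 (0.96). Those most like Ldhb were Ndufa6 (0.88), Cox6c (0.87) and Cox4i1 (0.87), which code for subunits of the respiratory chain. Slc16a1 was nearest to Kansl3 (0.92), Samm50, part of the mitochondrial outer membrane (0.91), and Cdadc1 (0.91). Slc16a3 was nearest to Klhl31, Prr33 and Exd2, each at 0.99. Each r rests on 10 classes.

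Other genes of lactate handling were scarce. Ldhc, the dehydrogenase of testis, had between 7 and 46 UMIs in a library, and Slc16a8 between 1 and 31. The sodium-coupled carriers Slc5a8 and Slc5a12 had between 6 and 92 and between 3 and 91 UMIs, with the most in Old replicate 2. Emb, which codes for embigin, another partner of the transporters, had between 34 and 341 UMIs. Of the 7 genes in this list, 5 could be tested, and 5 were higher in Old than in Young with a median log2 fold change of 1.57, led by Slc5a8 (2.32) and Slc5a12 (1.62), and 0 passed. In the 10x libraries alone 4 of these 5 were lower in Old after TMM scaling, all but Slc5a8. In raw UMIs only Slc5a12 was lower in Old there (17 against 21). Ldhc had 18 against 16 UMIs, Slc16a8 21 against 19 and Emb 341 against 304. In the second set all 5 had more UMIs in Old replicate 2, which stands apart, than in Young replicate 2. The part of this library in the fitted values was not tested. Between Running and Sedentary 1 was higher, and the median was -1.06.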
